A study of Mus musculus with 8 samples.

Results

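The genes described here are 10 genes of hepatic stellate cells and of the extracellular matrix: the collagen chains Col1a1, Col1a2 and Col3a1, the proteoglycans Lum and Dcn, the matrix protein Sparc, the protease inhibitor Timp1, the cytoskeletal genes Acta2 and Des, and the cytokine gene Tgfb1. They were taken by name, together with every array probe that the platform annotation assigns to them, which gave 17 of the 25697 probes on the array. RNA from the livers of 8 mice was measured on Illumina mouse bead arrays, 1 array per mouse. The 4 Mfn1 LKO mice (637, 638, 651 and 701) lacked Mfn1, a gene of mitochondrial fusion, in the liver, and the 4 control mice (641, 658, 661 and 663) are labelled Mfn1 wildtype. The strain was C57Bl6/Ntac in both groups, and every mouse was given a high fat diet, over 8 weeks, and then a fast of 6 hours before the liver was taken. The titles of both groups carry the name AlbCre, Cre recombinase driven by the albumin promoter, which acts in hepatocytes, so the deletion is not directed at the cells that make most of the products described here, and whether the control mice carried Cre is not settled by the labels. The labels give no ages.

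Hepatic stellate cells lie between hepatocytes and the sinusoidal endothelium, store vitamin A, and are the main source of fibrillar collagen when the liver scars. On activation they lose their vitamin A, take on a contractile phenotype with smooth muscle actin, and secrete collagens together with inhibitors of the proteases that would remove them. Transforming growth factor beta, released by macrophages and other cells and held latent in the matrix, is the best known signal for that change. In whole liver RNA, fewer cells of a type and less RNA per cell cannot be told apart.

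Signals are given as log2 of the background-corrected, quantile normalized intensity, and differences as log2 fold changes of Mfn1 LKO over control from limma, with Benjamini-Hochberg adjustment over all 8815 genes tested, or over all 25697 probes for a further probe of a gene. An adjusted p under 0.05 was the threshold, and for each gene the brightest probe was tested. On this scale the lowest signal of an array was 5.65 and the median of all probes about 6.02, so probes near these values lie at the floor, where an interval covers the signal and sets no limit on the transcript. The targeted gene checked the labels: Mfn1 averaged 7.08 ± 0.11 in Mfn1 LKO livers and 8.63 ± 0.057 in control livers (SD, n = 4 each), a log2 fold change of -1.54 (limma, adjusted p = 4.04e-06), and the groups did not overlap. Array medians lay between 96.4 and 103.9 intensity units and mean correlations with the other arrays between 0.990 and 0.993. The hepatocyte genes Apoa1 (14.00 in Mfn1 LKO and 13.99 in control livers) and Ttr (14.01 and 13.96) were bright, whereas the probes of the defining hepatocyte genes Alb (6.33 and 6.28) and Tat (5.81 and 5.82) lay close to the floor. Of 17 genes of quiescent stellate cells and vitamin A storage on the array, 12 passed the filter on dim probes. They included Reln, a secreted glycoprotein of stellate cells (10.09 in Mfn1 LKO and 10.10 in control livers), and Lrat, which esterifies retinol (6.48 and 6.59). Gfap (5.85 in each group), Lhx2 (5.86 and 5.83) and Hand2 (5.91 and 5.92) lay at the floor.

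One library stood apart in genes that the liver does not normally express. Mfn1 LKO mouse 651 carried transcripts of striated muscle. Acta1, skeletal muscle actin, read 5.71, 5.996, 8.48 and 5.81 in Mfn1 LKO mice 637, 638, 651 and 701, against 5.87, 5.93, 5.80 and 5.97 in control mice 641, 658, 661 and 663. Myl1, a fast muscle myosin light chain, read 5.79, 5.90, 8.38 and 5.88 in the Mfn1 LKO mice and 5.83, 5.80, 5.91 and 5.73 in the control mice. The summed signal of the 10 striated muscle markers on the array was 1605 in mouse 651 and between 577.0 and 586.6 in the other Mfn1 LKO mice, against 577.6 to 585.8 in the control mice. Only 1 of the 10, Tnni2, passed the filter on dim probes, and Actc1 and Myh4 were near the floor in mouse 651 as well (5.93 and 5.95). Des is the intermediate filament of muscle cells as well as a stellate cell marker, and matrix genes are also expressed in muscle connective tissue. The part of this muscle RNA in the values of mouse 651 was not tested. For the 10 genes, the fold changes, the median spread and the median correlation are given with that mouse and, in sentences of their own, without it. Col1a2 is the exception, as its probe did not pass the filter without that mouse. The medians of the surrounding gene lists are also given both ways, with Mgp, Igfbp7, Fbln1, Plin2, Smad4 and the second Dcn probe. The other list genes and further probes are given with all mice only.

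None of the 10 genes passed the threshold between Mfn1 LKO and control livers. Over all genes tested 0.0113% passed, which was Mfn1 alone. At an unadjusted p under 0.05 limma called 0 of the 10, where 10.6% of all genes tested had such a p, and 0 of the 10 had groups that did not overlap, against 6.11% of all genes. All 10 had a brightest probe past the filter on dim probes, and 16 of the 17 probes passed it. The log2 fold changes lay between -0.058 (Acta2) and 0.23 (Col3a1) with a median of 0.058, where the median of all genes tested was -0.012. In 9 of the 10 genes the mean was higher in Mfn1 LKO livers, against 44.6% of all genes tested, and for Timp1 that direction depended on the probe. Without mouse 651 the median was -0.044 over the 9 genes then past the filter, of which 3 had the higher mean in Mfn1 LKO livers.

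**Figure D1:**
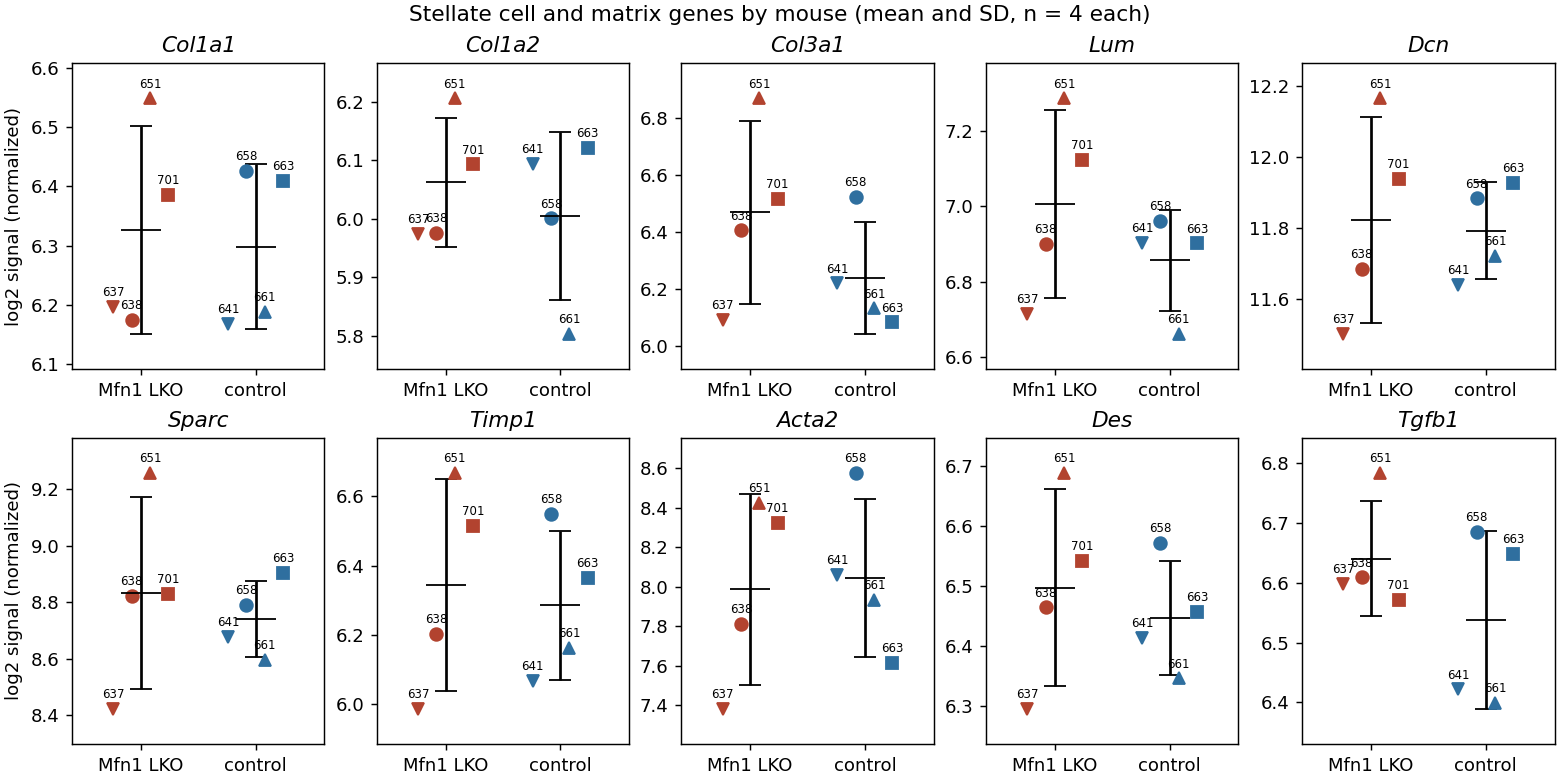
Normalized log2 signal of the brightest probe of each of the 10 genes, with each mouse as a point (number beside it), Mfn1 LKO on the left and control on the right, and the mean with its SD as bars (n = 4 each). The groups overlapped for all 10 genes, and mouse 651 was the highest of the 8 for all but Acta2.

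Col1a1 and Col1a2 encode the chains of type I collagen, the main fibril of scar tissue, and Col3a1 that of type III collagen, which lies with it in the normal liver. Col1a1 read 6.20, 6.18, 6.55 and 6.39 in Mfn1 LKO mice 637, 638, 651 and 701, against 6.17, 6.43, 6.19 and 6.41 in control mice 641, 658, 661 and 663. The ranges overlapped almost wholly, and the log2 fold change was 0.029 (SE 0.097, 95% interval -0.19 to 0.24, limma adjusted p = 0.950). Col1a2 read 5.97, 5.98, 6.21 and 6.09 in the Mfn1 LKO mice and 6.09, 6.001, 5.80 and 6.12 in the control mice. Its probe exceeded the array median in 4 of the 8 arrays, the least that the filter allowed, so that it sat at the floor in both groups (log2 fold change 0.057, 95% interval -0.13 to 0.24, limma adjusted p = 0.860). Col3a1 had the largest difference of the 10. Its values were 6.09, 6.40, 6.87 and 6.51 in the Mfn1 LKO mice and 6.22, 6.52, 6.13 and 6.08 in the control mice. Mouse 651 exceeded all controls and mice 638 and 701 exceeded 3 of the 4, while mouse 637 was among the lowest, and the log2 fold change of 0.23 (SE 0.15, 95% interval -0.11 to 0.57) did not pass (limma adjusted p = 0.637). Without mouse 651 it was 0.096. A further Col3a1 probe, below the array median in every array, read 5.88 ± 0.056 in Mfn1 LKO and 5.88 ± 0.071 in control livers (SD, n = 4 each).

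Lum and Dcn encode small leucine-rich proteoglycans that bind collagen fibrils and set their spacing, and Dcn (decorin) also binds transforming growth factor beta. In the RefSeq gene table (GRCm38.p6) they are neighbours on the same chromosome. Lum read 6.72, 6.90, 7.29 and 7.12 in Mfn1 LKO mice 637, 638, 651 and 701 and 6.90, 6.96, 6.66 and 6.90 in control mice 641, 658, 661 and 663. Mice 651 and 701 lay above all controls and the other 2 among them (log2 fold change 0.15, SE 0.12, 95% interval -0.12 to 0.41, limma adjusted p = 0.699). The bright Dcn probe read 11.50, 11.69, 12.17 and 11.94 in the Mfn1 LKO mice and 11.64, 11.88, 11.72 and 11.93 in the control mice. Its log2 fold change was 0.030 (SE 0.13, 95% interval -0.27 to 0.32, limma adjusted p = 0.965).

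The 2 Dcn probes did not give the same difference. The second read 9.44, 9.59, 10.07 and 9.98 in Mfn1 LKO mice 637, 638, 651 and 701, against 9.43, 9.45, 9.26 and 9.59 in control mice 641, 658, 661 and 663, with a log2 fold change of 0.34 (SE 0.13, 95% interval 0.051 to 0.63). Of the 17 probes it alone had an unadjusted p under 0.05. The share of all probes with such a p was not counted, and over the genes tested it was 10.6%. The second Dcn probe did not pass the threshold over all probes (limma adjusted p = 0.523), where 0.0117% of the 25697 probes passed. Its unadjusted p was above 0.05 without Mfn1 LKO mouse 651 or 701 or control mouse 661, where the fold change was 0.24, 0.27 and 0.28, and with a common median in place of quantile normalization (0.35). The fold change was 0.45 without mouse 637 and 0.35 without mice 651 and 637 together, with limma unadjusted p = 0.0025 and 0.012. Both probes lay well above the floor, between 627.5 and 1266 intensity units for the second and between 2732 and 4938 for the first. They carry the same transcript accession in the annotation, and where they lie on the transcript is not given in the sources used here.

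Sparc encodes osteonectin, a matrix protein that binds collagen and calcium, and Timp1 the secreted inhibitor of matrix metalloproteinases that rises in injured liver. Sparc read 8.42, 8.82, 9.26 and 8.83 in Mfn1 LKO mice 637, 638, 651 and 701 and 8.68, 8.79, 8.60 and 8.90 in control mice 641, 658, 661 and 663. The controls fell between the highest and the lowest Mfn1 LKO mouse (log2 fold change 0.092, SE 0.15, 95% interval -0.24 to 0.42, limma adjusted p = 0.875). The second Sparc probe gave 0.015. Timp1 read 5.99, 6.20, 6.67 and 6.52 in the Mfn1 LKO mice and 6.07, 6.55, 6.16 and 6.36 in the control mice. Its brighter probe gave a log2 fold change of 0.058 (95% interval -0.28 to 0.40, limma adjusted p = 0.930) and its other probe -0.086, so the direction depended on the probe. The 2 probes were almost equally bright, at 6.34 in Mfn1 LKO and 6.29 in control livers for the first and 6.27 and 6.36 for the other.

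Acta2, smooth muscle actin, marks activated stellate cells and the smooth muscle of vessels, and Des, desmin, marks stellate cells of rodent liver and muscle. Acta2 had the widest spread of the 10. It read 7.38, 7.81, 8.42 and 8.32 in Mfn1 LKO mice 637, 638, 651 and 701 and 8.06, 8.57, 7.93 and 7.61 in control mice 641, 658, 661 and 663. Its SD was 0.48 in Mfn1 LKO and 0.40 in control livers, and the log2 fold change was -0.058 (SE 0.25, 95% interval -0.61 to 0.50, limma adjusted p = 0.964). The interval for Acta2 was thus the least precise of the 10. The other 3 Acta2 probes were dimmer and gave values between -0.023 and 0.075. Des read 6.30, 6.46, 6.69 and 6.54 in the Mfn1 LKO mice and 6.41, 6.57, 6.35 and 6.46 in the control mice (log2 fold change 0.051, 95% interval -0.14 to 0.24, limma adjusted p = 0.881). Of 13 vascular smooth muscle markers on the array only 5 passed the filter, and their summed signal was 1183 to 1290 in Mfn1 LKO and 1199 to 1299 in control livers.

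Tgfb1 encodes the most abundant ligand of the pathway. It read 6.60, 6.61, 6.78 and 6.57 in Mfn1 LKO mice 637, 638, 651 and 701, against 6.42, 6.69, 6.40 and 6.65 in control mice 641, 658, 661 and 663. Mouse 651 lay above the control range and the other Mfn1 LKO mice within it (log2 fold change 0.10, SE 0.081, 95% interval -0.079 to 0.28, limma adjusted p = 0.700). Tgfb1 and Col1a2 were the exceptions to the wider spread among Mfn1 LKO livers. The SD was larger in Mfn1 LKO than in control livers in the other 8 of the 10 genes, where it was larger in 53.6% of all genes tested.

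**Figure D2:**
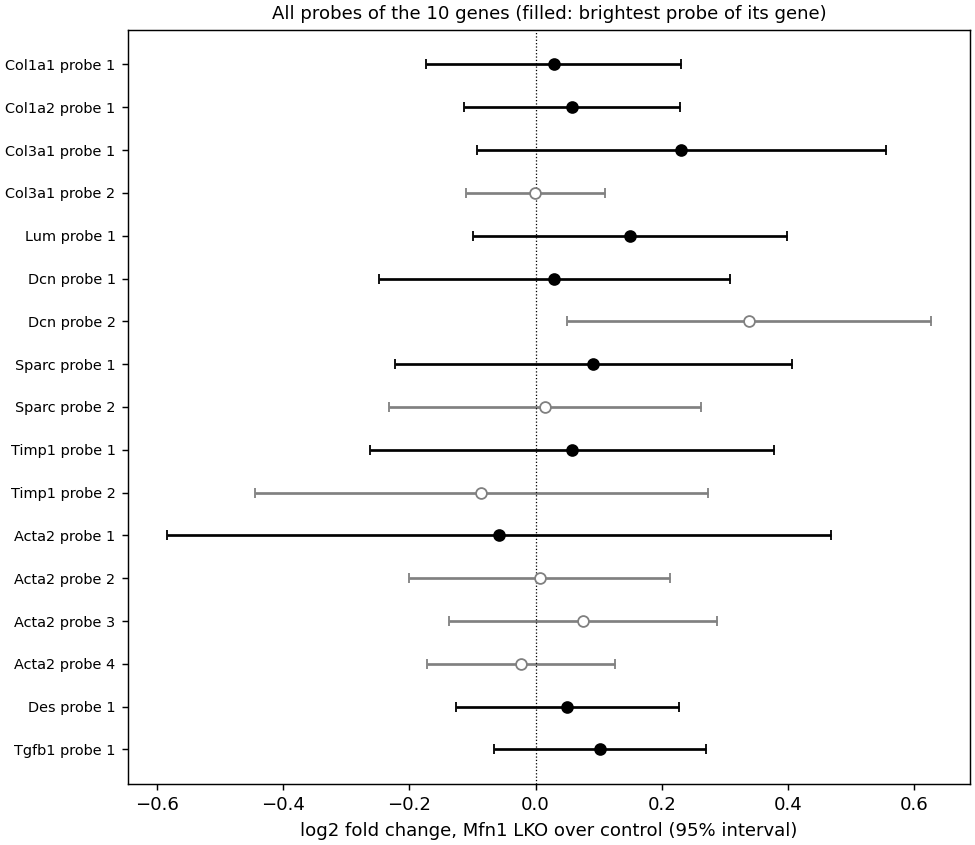
Log2 fold change of Mfn1 LKO over control for all 17 probes from the fit over all probes (points) with 95% intervals (bars), filled for the brightest probe of each gene. Only the interval of the second Dcn probe, from 0.051 to 0.63, leaves out 0.

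The larger pattern lay between mice and not between groups. Mouse 651 was the highest of the 8 mice in 9 of the 10 genes, where it was the highest in 16.1% of all genes tested. Mouse 637, also Mfn1 LKO, was the lowest of the 8 in 5 of the 10, Dcn, Sparc, Timp1, Acta2 and Des, against 15.9% of all genes tested. Both held at once in 4 of the 10 and in 4.54% of all genes. Averaged over the 10 genes, the signal lay -0.25, -0.06, 0.33 and 0.12 from the mean of the 8 arrays in Mfn1 LKO mice 637, 638, 651 and 701, against -0.10, 0.13, -0.17 and -0.02 in control mice 641, 658, 661 and 663. The median SD over the 10 genes was 0.27 in Mfn1 LKO and 0.14 in control livers, while over all genes tested it was 0.093 and 0.089. Without mouse 651 it was 0.21 in Mfn1 LKO (n = 3) and 0.14 in control livers over the 10 genes, and 0.085 and 0.088 over all genes. The SD then was larger in Mfn1 LKO livers in 7 of the 10, and in 47.5% of all genes.

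Other cell type markers also differed between these mice. The hepatocyte mean over 10 markers ran the other way, at 0.17 in mouse 637 and -0.21 in mouse 651. Its widest gaps between mice 637 and 651 were in G6pc (11.72 and 10.15) and Cps1 (12.26 and 11.01). Apoa1 (14.07 and 13.95) and Hnf4a (10.62 and 10.42) differed less. Alb, close to the floor, was the higher in mouse 651 (6.01 and 6.61). The macrophage mean over 16 markers was -0.15, 0.06, 0.32 and 0.37 in Mfn1 LKO mice 637, 638, 651 and 701 and -0.20, 0.05, -0.19 and -0.25 in control mice 641, 658, 661 and 663. Of these 16 markers, 15 had the higher mean in Mfn1 LKO livers, against 44.6% of all genes tested. None passed the threshold with limma, and 7 had an unadjusted p under 0.05 with the higher mean in Mfn1 LKO livers, against 5.83% of all genes. Without mouse 651, 14 of the 16 had the higher mean in Mfn1 LKO livers, against 44.0% of all genes. In that fit 5 of the 16 had an unadjusted p under 0.05 in either direction, against 10.1% of all genes. The summed signal of the 19 on the array was 3980 to 5837 in Mfn1 LKO and 3674 to 4384 in control livers. The brightest were Vsig4 (9.78 in Mfn1 LKO and 9.23 in control livers) and Lyz2 (9.25 and 9.01), and Itgam, Cd5l and Ccr2 lay at the floor. Portal fibroblast markers had a mean of -0.16, -0.06, 0.14 and 0.12 in the Mfn1 LKO mice and -0.10, 0.12, -0.06 and -0.01 in the control mice, over 8 markers led by Gas6 (9.24 in Mfn1 LKO and 9.14 in control livers) and Entpd2 (6.9996 and 6.99). Between mice 637 and 651 the widest gaps were in Gas6 (8.73 and 9.65), Dpt (6.11 and 6.83) and Entpd2 (6.79 and 7.28). Thy1 (6.17 and 6.16) and Cd34 (6.11 in each) hardly differed, and Clec3b (6.13 and 6.04) was lower in mouse 651. Gli1, Pi16 and Msln lay at the floor. Neutrophil markers had wider swings. Their mean over 8 markers was -0.36, 0.13, -0.06 and 0.77 in the Mfn1 LKO mice and -0.34, 0.41, -0.38 and -0.16 in the control mice. The summed signal of the 11 on the array was 1271 to 4314 in Mfn1 LKO and 1134 to 4321 in control livers, led by Lcn2 (10.11 in Mfn1 LKO and 9.81 in control livers), which hepatocytes also make, and S100a8 (8.10 and 7.58), while the defining genes Ngp, Mpo and Cxcr2 did not pass the filter. The acute phase mean was -0.12, -0.08, -0.10 and 0.43 in the Mfn1 LKO mice and -0.31, 0.52, -0.23 and -0.11 in the control mice. Mice 701 and 658, high in both lists, were also the next highest after mouse 651 in the mean of the 10 genes. Both lists include Lcn2 (11.29 in mouse 701 and 11.63 in mouse 658), so they are not separate measures. The part of these cell types and of the acute phase in the matrix values was not tested.

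**Figure D3:**
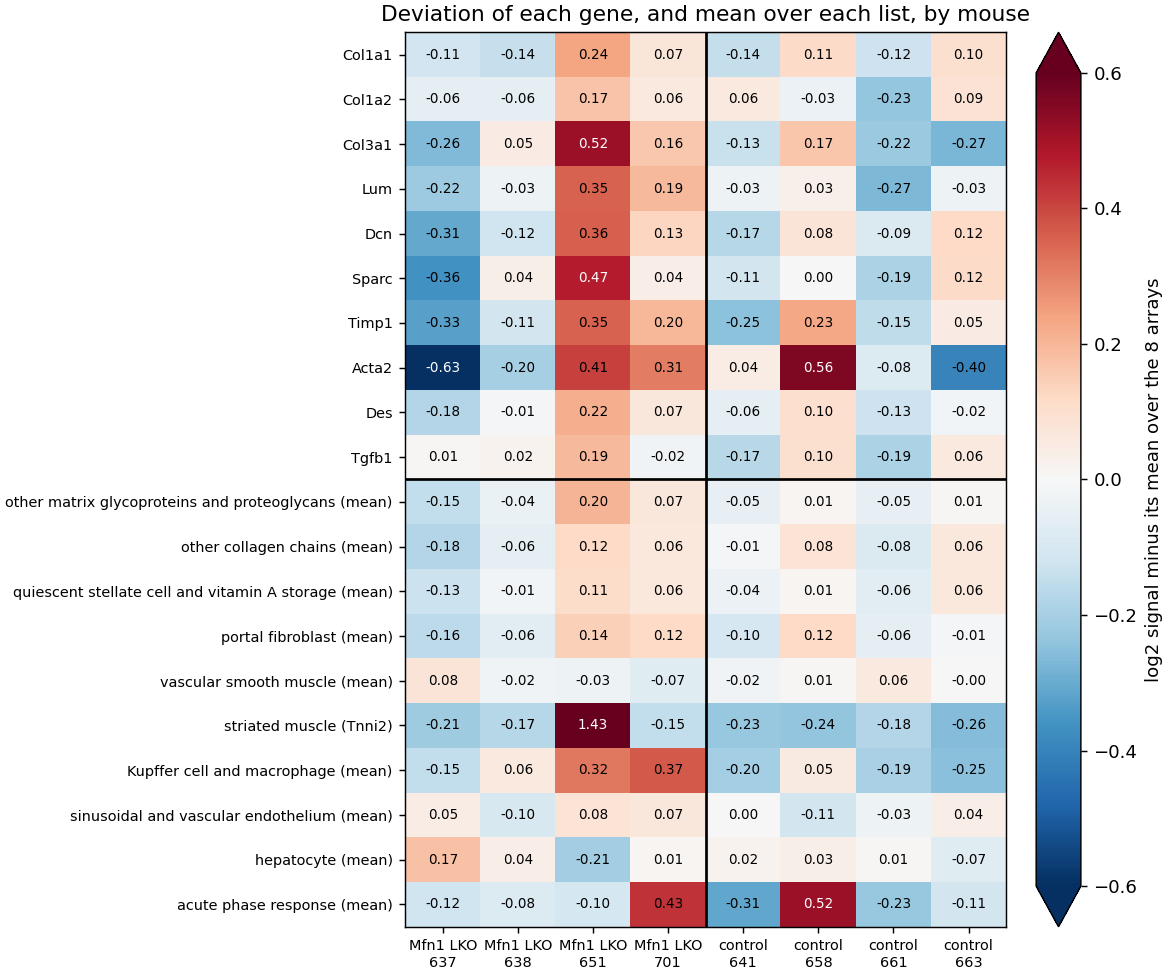
Deviation of the log2 signal from the mean of all arrays, for each of the 10 genes (above the line) and as a mean over other gene and marker lists (below it), with Mfn1 LKO mice left of the vertical line and controls right of it. Mouse 651 is high and mouse 637 low for most of the 10 genes, and striated muscle, given by Tnni2, stands out in mouse 651 at 1.43.

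Across the 8 arrays the 10 genes varied together. The 45 pairs had Pearson correlations between 0.28 (Acta2 and Tgfb1) and 0.95 (Dcn and Timp1) with a median of 0.79, a value reached by 1.53% of all pairs of genes tested. The Spearman median was 0.71. Taken as deviations from the group means, the median was 0.80. Without mouse 651 the Pearson median was 0.61 over the 7 remaining arrays, with pairs between 0.043 and 0.93, and 8.80% of all pairs of genes reached it. Without mice 637 and 651 it was 0.65 over the 6 remaining arrays, where 9.45% of all pairs of genes reached that value. These are descriptions over few mice that share liver makeup and array processing.

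The pairs of collagen chains lay below that median. For Col1a1 and Col1a2 Pearson's r was 0.67 (exact permutation p = 0.0711, adjusted p = 0.107 over the 3 pairs) and Spearman's rho 0.48 (exact permutation p = 0.243, adjusted p = 0.449). For Col1a1 and Col3a1 r was 0.69 (exact permutation p = 0.0539, adjusted p = 0.107) and rho 0.43 (exact permutation p = 0.299, adjusted p = 0.449). For Col1a2 and Col3a1 r was 0.53 (exact permutation p = 0.184, adjusted p = 0.184) and rho 0.31 (exact permutation p = 0.462, adjusted p = 0.462). No pair passed with all mice. Without the 2 arrays farthest from the median of the first gene, mouse 651 among them each time, r was 0.59, 0.16 and -0.18, so for the pairs with Col3a1 the relation rested on those arrays. Without mouse 651 alone r was 0.48, 0.41 and 0.18. The first pair passed without control mouse 641 (r = 0.83, exact permutation, adjusted p = 0.0429) and the second without control mouse 663 (r = 0.90, exact permutation, adjusted p = 0.0244). Closer were Timp1 with Dcn (0.95), Des with Timp1 (0.94), Des with Lum (0.94) and Col1a1 with Timp1 (0.93).

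The promoters of Des, Timp1, Col3a1 and Sparc are shown because these 4 genes varied together over the 8 arrays, with r between 0.79 and 0.94 for each pair, and are in the RefSeq promoter table (GRCm38.p6). Without mouse 651 these r lay between 0.45 and 0.85, and without mice 637 and 651 between 0.28 (Col3a1 and Sparc) and 0.87, so the closeness of some pairs rested on those mice. Of the 10 genes 7 matched that table. Each sequence gives the 250 bases before the start site on the gene's own strand, at chr1:75360042-75360291 (plus strand) for Des, chrX:20869916-20870165 (plus) for Timp1, chr1:45311288-45311537 (plus) for Col3a1 and chr11:55420081-55420330 (minus) for Sparc. Capitals mark exact matches on either strand to TATAA (the TATA box), CCAAT (bound by NF-Y), CAGAC (bound by SMAD proteins), TGANTCA (AP-1) or CCWWWWWWGG. The last, with W for A or T, is the strict form of the CArG box of serum response factor.
Des: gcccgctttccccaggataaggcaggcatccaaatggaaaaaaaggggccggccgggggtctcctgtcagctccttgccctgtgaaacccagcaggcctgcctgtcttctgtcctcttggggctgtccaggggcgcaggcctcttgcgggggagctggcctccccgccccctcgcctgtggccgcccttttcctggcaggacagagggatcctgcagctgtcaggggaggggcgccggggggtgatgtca
Timp1: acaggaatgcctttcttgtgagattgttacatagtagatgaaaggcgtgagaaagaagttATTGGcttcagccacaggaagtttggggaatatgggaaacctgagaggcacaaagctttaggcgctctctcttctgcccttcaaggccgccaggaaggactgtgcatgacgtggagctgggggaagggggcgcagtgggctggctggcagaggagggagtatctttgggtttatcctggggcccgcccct
Col3a1: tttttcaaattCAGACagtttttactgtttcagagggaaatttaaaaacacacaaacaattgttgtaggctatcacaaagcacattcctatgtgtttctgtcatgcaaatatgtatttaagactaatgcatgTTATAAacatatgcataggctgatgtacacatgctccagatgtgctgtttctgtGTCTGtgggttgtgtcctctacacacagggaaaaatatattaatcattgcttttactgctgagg
Sparc: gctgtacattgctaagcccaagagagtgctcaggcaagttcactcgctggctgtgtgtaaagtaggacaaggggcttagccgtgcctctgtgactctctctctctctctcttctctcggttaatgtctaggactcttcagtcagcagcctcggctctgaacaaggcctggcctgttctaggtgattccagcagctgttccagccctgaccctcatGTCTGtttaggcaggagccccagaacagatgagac
Col3a1 held TATAA 117 bases before the start site, within the palindrome TTATAA that matches on both strands, and CAGAC at 239 bases and, on the other strand, at 64 bases. Sparc held CAGAC on the other strand at 35 bases, Timp1 held CCAAT on the other strand at 190 bases, and the Des window held none of the 5 motifs. No matches of different motifs overlapped. Among all 32851 promoters of the table, 22.8% held TATAA in the same window, 33.8% CCAAT, 42.2% CAGAC, 6.75% TGANTCA and 1.47% a CArG box. Among the 7 matched genes, TATAA was found in 1, CCAAT in 2 (Timp1 and Col1a2), CAGAC in 4 (Col3a1, Col1a2, Sparc and Acta2), and TGANTCA and the strict CArG box in 0. Sites that depart from a motif were not counted. The Acta2 window held ccctatatgg and ccttgtttgg, each 1 base away from the strict CArG box.

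With 1 of these mice left out the fold changes shifted together. In the fits without mouse 637, mouse 651 or both, Timp1 was read by its other probe, which gave -0.086 with all mice. Without mouse 637 all 10 genes had the higher mean in Mfn1 LKO livers, between 0.038 (Timp1) and 0.36 (Col3a1), with a median of 0.13. Without mouse 651 Col1a1 gave -0.044, Dcn -0.084, Sparc -0.049, Timp1 -0.21, Acta2 -0.20 and Des -0.013. Col3a1 (0.096), Lum (0.055) and Tgfb1 (0.053) were the 3 on the higher side. With both mice left out the median was 0.040, Col3a1 gave 0.22, Lum 0.15 and Sparc 0.086. Without mouse 637, 2 of the 10 had an unadjusted p under 0.05, where with all mice it was 0. The share of all genes with such a p was not counted in that fit, so the 2 are not read as a result. With all mice that share was 10.6%. None of the 10 passed the threshold in any of these fits, with a lowest adjusted p of 0.322 without mouse 637, 0.663 without mouse 651 and 0.594 without both (limma).

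**Figure D4:**
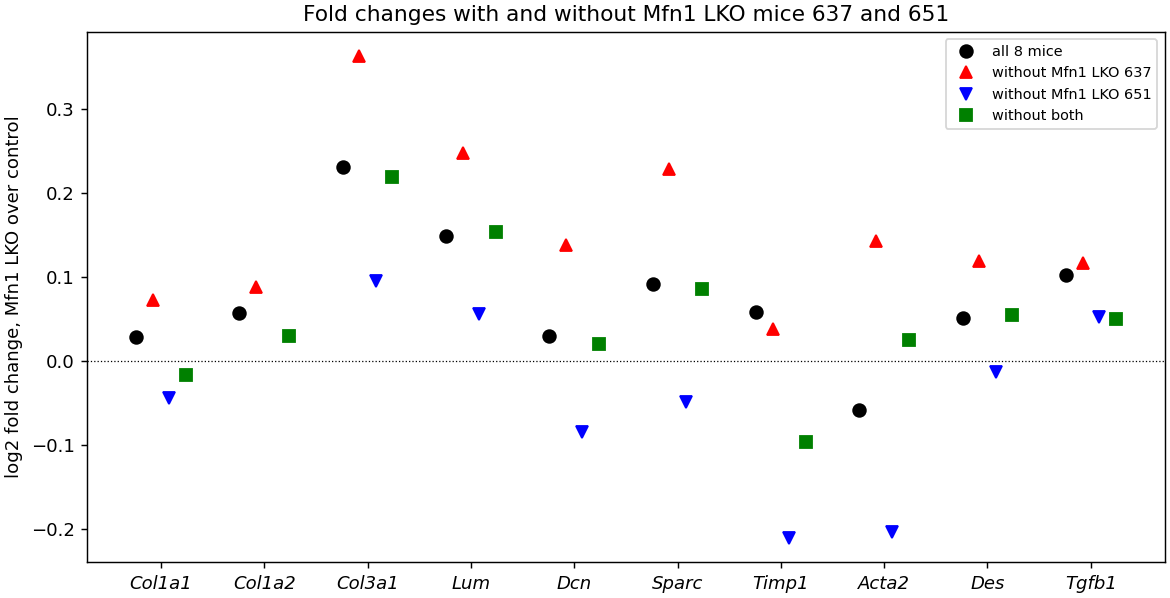
Log2 fold change of Mfn1 LKO over control for each of the 10 genes with all 8 mice, without mouse 637, without mouse 651, and without both. Points without mouse 637 lie above and those without mouse 651 below the value of all mice for 9 genes each, Timp1 being the exception without mouse 637; for Timp1 the fits with mice left out took its other probe, and Col1a2 did not pass the filter without mouse 651.

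Genes around these 10 in matrix turnover and in the signalling of stellate cells were described from 9 lists, of which 147 genes apart from the 10 were tested. None passed the threshold with limma, and 9 had an unadjusted p under 0.05, a smaller share than the 10.6% of all genes tested. Without mouse 651 it was 5 of 146, where 10.1% of all genes had such a p. With a common median in place of quantile normalization it was 3 of 147, and the share of all genes was not counted in that fit. Of 11 other collagen chains, 5 had the higher mean in Mfn1 LKO livers and 6 the lower, with a median log2 fold change of -0.022. Col18a1, the basement membrane collagen that hepatocytes also make and that yields endostatin, was lower in all 4 Mfn1 LKO livers than in all 4 controls (12.05 to 12.14 in Mfn1 LKO and 12.25 to 12.28 in control livers, log2 fold change -0.16, limma adjusted p = 0.276). Col5a3 gave -0.066 and Col15a1 -0.068. The groups did not overlap in 1 of the 11 other collagens, 1 of 15 genes of collagen folding (Plod3) and 1 of 23 other matrix genes (Mgp). Among ligands, receptors and SMADs it was 2 of 21 (Smad4 and Smad3), and in each remaining list 0, against 6.11% of all genes tested.

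Among 15 genes of collagen folding, processing and crosslinking the median was -0.0025, with 7 genes of higher and 8 of lower mean. The lysyl hydroxylase genes Plod3 (-0.15, limma adjusted p = 0.355) and Plod1 (0.15, adjusted p = 0.448) went opposite ways, and P4hb, a subunit of prolyl hydroxylase, gave -0.10. Among 23 other matrix glycoproteins and proteoglycans 15 had the higher mean, with a median of 0.026. Mgp, matrix Gla protein, read 6.94, 6.81, 7.21 and 7.01 in Mfn1 LKO mice 637, 638, 651 and 701 and 6.28, 6.65, 6.65 and 6.70 in control mice 641, 658, 661 and 663. The groups did not overlap, and the log2 fold change of 0.42 (SE 0.11, limma adjusted p = 0.270) did not pass. Igfbp7, a secreted protein of vessels and stroma, gave 0.38 (limma adjusted p = 0.300) with 1 Mfn1 LKO value, 11.13 in mouse 637, inside the control range of 10.87 to 11.14. Fbln1, which encodes the matrix protein fibulin 1, gave 0.16. Without mouse 651 Mgp gave 0.34, Igfbp7 0.30 and Fbln1 0.13, and 8 of the 23 had the higher mean, with a median of -0.019.

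The 18 matrix proteases and inhibitors had a median of -0.013 with 7 genes of higher and 11 of lower mean. Serpinf2, the liver's plasmin inhibitor, gave -0.14, the collagenase gene Mmp13 -0.25 and Timp3 0.21, with limma adjusted p values of 0.524, 0.584 and 0.592. The 21 genes of ligands, latency proteins, receptors and SMADs of the transforming growth factor beta pathway had a median of -0.014, with 10 of higher and 11 of lower mean. Smad4, the SMAD shared by the pathway's branches, lay lower in all 4 Mfn1 LKO livers (9.48 to 9.70) than in the controls (9.72 to 9.85), with a log2 fold change of -0.18 (limma adjusted p = 0.323). Smad3, which carries the signal from the receptor, gave -0.11 (adjusted p = 0.512), and Tgif1, a repressor of SMAD transcription, gave 0.25 (adjusted p = 0.380). Of 10 target genes of the pathway 7 had the higher mean, with a median of 0.060, and Id3 (0.20), Junb (-0.32) and Tgfbi (0.19) had the smallest p (limma adjusted p = 0.592, 0.612 and 0.623).

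Growth factor and vasoactive signalling genes of stellate cells had a median of 0.030 over 22 genes, led by Ece1, which makes endothelin (-0.11), Vegfa (0.18) and its receptor gene Kdr (-0.074). The Kdr probe lay at the floor (5.99 in Mfn1 LKO and 6.06 in control livers). The 12 genes of quiescent stellate cells and vitamin A storage had a median of 0.0046, with 6 genes on each side. Plin2, a lipid droplet protein that hepatocytes make in quantity, gave 0.28 (limma adjusted p = 0.418), the nerve growth factor receptor gene Ngfr -0.14 and Pth1r -0.076. The 17 acute phase genes had a median of 0.046, with Fga, a fibrinogen chain, at -0.10, Cebpb at -0.24 and Orm2 at 0.36. Without mouse 651 the medians were -0.050 for other collagens, -0.023 for collagen folding, -0.041 for proteases, -0.019 for the ligands, receptors and SMADs, 0.041 for target genes, 0.031 for growth factor signalling, -0.032 for quiescent stellate cells and 0.17 for the acute phase, where the median of all genes was -0.014. Plin2 then gave 0.19 and Smad4 -0.22.

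**Figure D5:**
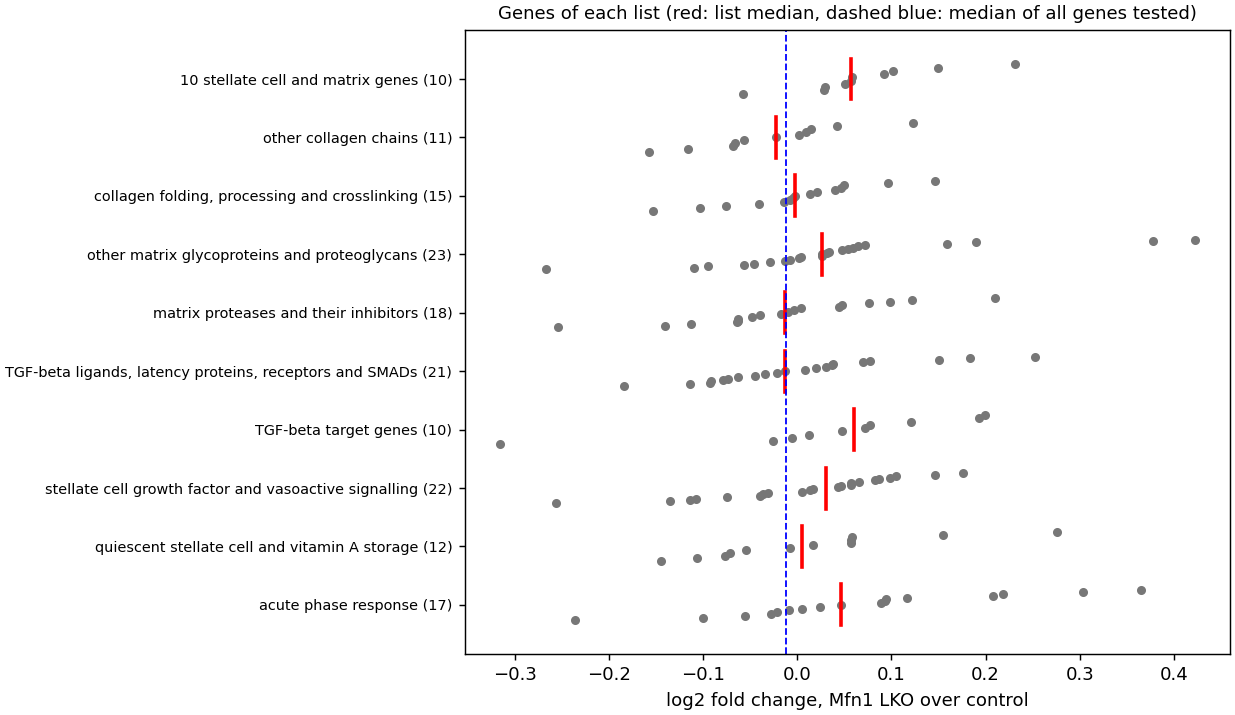
Log2 fold change of Mfn1 LKO over control for each tested gene (points) of the 10 genes and of 9 surrounding lists, with the number of genes in brackets, the list median in red and the median of all genes tested, -0.012, as a dashed line. List medians lie between -0.022 and 0.060.

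Genes whose signal followed the mean of the collagen chains most closely over the 8 arrays were Tnfrsf22 (r = 0.99), Zc2hc1a (0.98), Fam177a and the endotoxin receptor gene Cd14 (0.97 each), Krt8, a keratin of hepatocytes and bile ducts (0.96), Pcolce, which helps to cleave procollagen (0.96), Thbs2, a matrix thrombospondin (0.96), and Cd63 (0.94). With Dcn went Uap1l1 (0.99), Sh3pxd2b (0.97) and Cd63 (0.97). Sparc was followed by the tetraspanin gene Cd81 (0.99), Anxa5 (0.97) and Fxyd6 (0.97), and Timp1 by Gas6, a ligand of TAM receptors (0.99), Armcx2 (0.98) and Ambra1 (0.97). For Lum the closest were Zc2hc1a (0.98), Grina (0.97) and Smpd3 (0.96), and for Des Jpt1 (0.97), Cd14 (0.97) and Emp1 (0.96). Acta2 had lower values, with Hmgn3 (0.96), Riok1 (0.95) and Ralb (0.93), and Tgfb1 had Snrk (0.99), Lrrfip1 (0.96) and Rbm28 (0.95). These were picked as the highest correlations among the 8815 genes over 8 arrays and are given as a description. Without mouse 651 they lay between 0.79 (Timp1, there by its other probe, and Ambra1) and 0.98.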

How the data were processed

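Liver RNA of 8 mice (4 Mfn1 LKO, 4 control) was hybridised to Illumina bead arrays. The authors deposited linear signal intensities for 25697 probes, not background-subtracted and with no detection p-values, and log2 values of the same arrays, which lay within 0.011 of quantile normalized log2 intensities. How the authors made either table is not stated in the labels or the file headers, and the tables held 0 columns of other samples. Intensities were corrected with normexp (offset 50), quantile normalized and put on the log2 scale. A probe was kept if it exceeded the median of its array in 4 or more of the 8 arrays (12755 probes), and for each of 8815 genes the brightest was taken. Gene names are those of GEO's platform annotation, where 23978 probes had 1 symbol, 0 had several and 1719 had none. Groups, taken from the titles, were compared by limma 3.58.1 under R 4.3.3, with lmFit and then eBayes as a two-sided test. Its p-values set the group difference against the spread between mice within groups, with each gene's variance moderated towards that of all genes. The offset compresses the fold changes of dim genes. The number of arrays limits the precision. Summed signals add the linear normalized signal of the brightest probe of every list gene on the array, and list means use the genes past the filter. The members, gene lists and left-out mice were chosen with earlier results of these data known. Named were all member probes, Mfn1, the 3 genes of smallest p of each list, the 8 genes most like the collagen mean, the 3 most like each other member, and the 2 brightest of a marker list that is described. Acta1, Myl1, Tnni2, Actc1, Myh4, Reln, Lrat, Gfap, Lhx2, Hand2, Alb, Tat, G6pc, Cps1, Hnf4a, Itgam, Cd5l, Ccr2, Dpt, Thy1, Cd34, Clec3b, Gli1, Pi16, Msln, Ngp, Mpo and Cxcr2 were chosen after their values were seen. Alternatives changed the correction, offset, scaling, source of values, filter, probe rule, variance model, array weights and the mice included. Promoters were searched in Python 3.11.15, and matplotlib 3.10.9 drew the figures.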

Additional observations from a re-analysis of the deposited data

Results flagged for a closer look

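Of 58 sets of 4 values examined for a sample far from the others, 34 for the members' probes and 24 for the summed signals of marker lists, 3 stood out, where chance gives about 1 in 20. All 3 were marker list sums and none was a probe of the 10 genes. The summed signal of striated muscle markers was 1605 in Mfn1 LKO mouse 651, against 577.0 to 586.6 in the other Mfn1 LKO mice. The same sum was 577.6 in control mouse 661, against 585.0 to 585.8 in the other controls, a gap of a few units at the floor of the array. The summed signal of sinusoidal and vascular endothelium markers was 4295 in control mouse 658, against 5255 to 5380 in the other controls. Its brightest genes were Clec4g (11.04 in Mfn1 LKO and 10.99 in control livers) and Egfl7 (9.40 in each). The part of any of these in the values of the matrix genes was not tested.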

How the results depend on the processing

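No paired analysis was possible because the groups share no mouse numbers. The count of members past the threshold was 0 in every fit, as was that of the pathway lists. The count of genes past the threshold was 1, and 2 with no filter, with array weights or with Mfn1 LKO mice 637 and 651 left out, the last an alternative chosen after seeing the data; leaving out 1 mouse gave 1 to 3. The count of probes past it was 3, and 22 with a common 75th percentile and 9 with limma-trend and robust estimation, and 2 to 4 with 1 mouse left out. The members' median lay between 0.037 and 0.091 under the other settings with all mice, and between -0.044 and 0.13 with 1 mouse left out. Of 194 recomputed member fold changes 167 kept their sign, 27 were reversed and 0 passed. Timp1 was reversed with the deposited values (-0.056), without background correction (-0.056), with a common median (-0.056), a common 75th percentile (-0.078) and cyclic loess (-0.064), where its other probe was the brighter, with the mean of probes (-0.014), and without mice 637 and 651 (-0.096). Dcn was reversed with a common 75th percentile (-0.0059), Acta2 with the mean of probes (2.82e-05) and without mice 637 and 651 (0.025), and Col1a1 without those mice (-0.017). With 1 mouse left out Col1a1 lay between -0.044 and 0.079, Col1a2 between -0.0097 and 0.089, Dcn between -0.084 and 0.14, Sparc between -0.049 and 0.23, Timp1 between -0.21 and 0.15, Acta2 between -0.20 and 0.14 and Des between -0.013 and 0.12. The cause was not tested beyond the change of probe. Col1a2 and Timp1 did not pass the filter when it asked for all arrays, and Col1a2 did not pass it without 1 of mice 651, 701, 641 and 663. Its correlations have no value with the filter on all arrays and used its probe regardless of the filter with 1 mouse left out. With 1 mouse left out r lay between 0.48 and 0.83 for Col1a1 and Col1a2, 0.41 and 0.90 for Col1a1 and Col3a1, and 0.18 and 0.73 for Col1a2 and Col3a1, lowest each time without mouse 651, and without mice 637 and 651 it was 0.46, 0.32 and 0.14. Col3a1 gave 0.16 without background correction and 0.38 with a normexp offset of 16. Signals near the floor limit what Col1a1, Col1a2, Col3a1 and Timp1 can show.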
